A study of Mus musculus with 12 samples.

Results

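The genes described here are 9 mucins and secretory factors linked to the mucus-secreting goblet cell, chosen by name with earlier results of these data known. They are the mucins Muc5b, Muc5ac and Muc4, the mucin-folding enzyme Agr2, the secreted or granule-associated proteins Clca1, Tff2 and Gp2, and the transcription factors Spdef and Foxa3. As described below, Muc4 and Gp2 are not confined to goblet cells. The 9 genes carried 15 of the 41174 probes of an Agilent whole mouse genome array. Of the 9 members 8 were measured among 19819 genes, and those 8 were well above background on all 12 arrays, so none of them was kept through its brightest group alone. Foxa3 did not pass the filter on signal and was left out of the fit. RNA of whole mouse lung was hybridised in a single colour, 1 array per mouse, in 3 groups of 4 mice called biological replicates in the labels. The first group was wild type (WT) in room air, the next WT in cigarette smoke, and the last Rora mutant in cigarette smoke, all on C57Bl/6 and all labelled male with an age of 12 weeks. Smoke was given by machine on 5 days a week for 4 months, which is longer than 12 weeks, so that age cannot be the age at the end. Rora encodes a nuclear receptor, and the labels do not say which mutant allele was used. Mutants kept in room air were not analysed here, and an effect of genotype alone cannot be told apart from an effect of genotype under smoke.

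Goblet cells of the airway pack gel-forming mucins into granules and release them onto the epithelium, where the mucins swell into mucus that traps particles. Muc5b is the mucin of the resting mouse airway, while Muc5ac is known to rise with allergic and interleukin-13 stimuli, together with Clca1, Agr2 and the factors Spdef and Foxa3. The resting mouse lung holds few goblet cells, most of them in the large airways. In whole lung, fewer cells of a type and less RNA per cell cannot be told apart.

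Every one of the 8 measured members was lower in WT smoke than in WT room air, and 4 of them, Muc5b, Clca1, Tff2 and Gp2, were lower again in the mutants under smoke. With another background correction (normexp), 4 of the 8 passed in WT smoke and 0 in the mutants against WT smoke. Without WT smoke replicate 1 or mutant replicate 4, 2 members passed in the mutants. Clca1 had the widest range: its processed signal lay between 4316 and 29960 in room air, between 40.0 and 714 in WT smoke and between 14.3 and 27.2 in the mutants. Spdef and Muc4 differed least between groups. Levels below are log2 processed signal over the 75th percentile of the same array, and a difference is a difference of such levels. A gene passed at a p under 0.05 in limma's moderated test, adjusted by Benjamini and Hochberg's method across the 19819 genes. Errors of differences are standard errors, and errors of group means are SDs over 4 arrays. Levels of different probes were not compared.

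**Figure D1:**
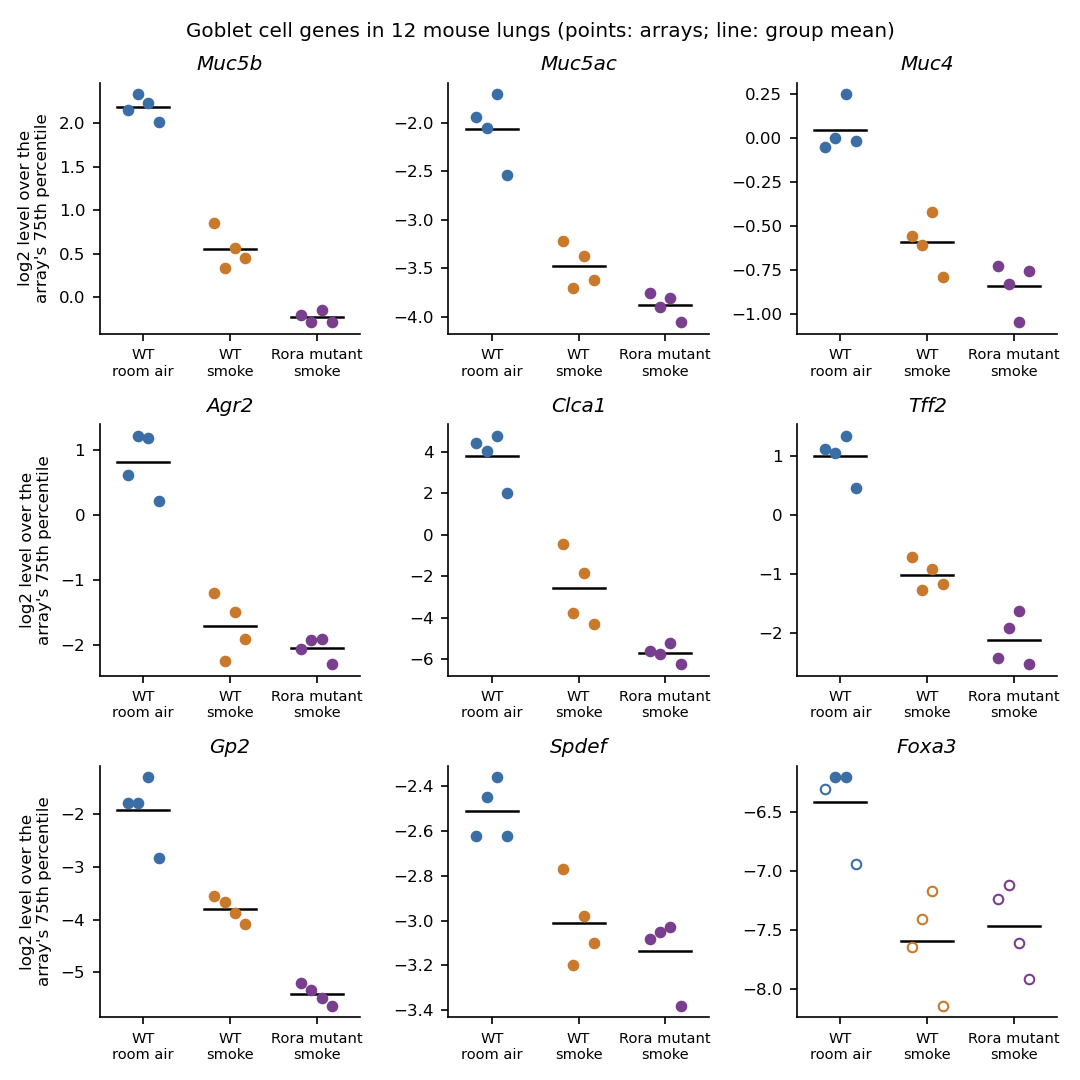
Level of each of the 9 members (log2 over the array's 75th percentile, linear axis in log2 units) on each of 12 arrays, by group; points are arrays, horizontal lines are group means, and open points are arrays on which the probe was not well above background. For the 8 measured members every WT smoke array lies below every room-air array, and for Muc5b, Muc5ac, Clca1, Tff2 and Gp2 every mutant array lies below every WT smoke array.

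Some facts of the whole set bear on these values. The share of spots well above background was 70.1% to 74.8% per array, and every slide held arrays of all 3 groups. Rora stood at 1.10 in room air, 1.18 in WT smoke and -1.01 in the mutants, and fell by 2.20 in mutant against WT smoke (limma adjusted p = 1.16e-09). Sex-linked genes went against the label of a single sex. Xist, which is expressed from the inactive X chromosome, was between 3.97 and 4.13 in the room-air arrays and at or below -3.18 in all 8 smoke arrays. The Y-linked Ddx3y averaged -7.67 in room air, 0.46 in WT smoke and 0.51 in the mutants. In each comparison with room air, smoke and this difference therefore cannot be told apart, while between the smoke groups Xist differed by 0.78 ± 0.88 (mutant minus WT, limma adjusted p = 0.677). Against room air, WT smoke had 506 genes lower and 457 higher (2.55% and 2.31%), and against WT smoke the mutants had 706 lower and 491 higher (3.56% and 2.48%). Scaled to the array median instead, these splits were 351 lower with 592 higher, and 529 lower with 686 higher. Mutant smoke against room air had 1990 lower and 1322 higher (10.0% and 6.67%), or 1403 lower and 2961 higher when scaled to the median.

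Promoter sequence was at hand for 5 of the 9 members: Muc4, Agr2, Gp2, Spdef and Foxa3 (RefSeq, build GRCm38.p6, the 250 bases before the start of the gene on its own strand). Agr2, Gp2 and Spdef are shown, 5′ to 3′. Of these 3 only Spdef held a match to the motifs searched, given in capitals.
Agr2: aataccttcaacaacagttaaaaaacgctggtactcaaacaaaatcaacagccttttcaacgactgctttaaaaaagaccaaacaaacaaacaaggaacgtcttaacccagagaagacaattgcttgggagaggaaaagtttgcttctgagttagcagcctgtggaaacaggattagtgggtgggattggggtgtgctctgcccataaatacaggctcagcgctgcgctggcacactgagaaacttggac
Gp2: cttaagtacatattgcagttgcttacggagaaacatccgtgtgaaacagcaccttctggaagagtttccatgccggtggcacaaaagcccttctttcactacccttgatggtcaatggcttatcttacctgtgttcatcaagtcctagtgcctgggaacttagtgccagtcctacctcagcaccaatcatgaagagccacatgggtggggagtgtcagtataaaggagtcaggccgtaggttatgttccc
Spdef: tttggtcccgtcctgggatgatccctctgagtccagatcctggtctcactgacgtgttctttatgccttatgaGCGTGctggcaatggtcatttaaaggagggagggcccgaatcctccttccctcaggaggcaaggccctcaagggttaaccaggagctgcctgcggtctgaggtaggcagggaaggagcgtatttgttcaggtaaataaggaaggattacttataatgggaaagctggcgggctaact
They lie at chr12:35992675-35992924 (+), chr7:119459273-119459522 (-) and chr17:27728952-27729201 (-). Searched on both strands were TGTTTAC (forkhead factors such as Foxa3), the palindromic Stat6 motif, AGGTCA (nuclear receptors such as Rora), CCGGAT (Ets factors such as Spdef) and GCGTG (the aryl hydrocarbon receptor, which binds compounds of smoke). The capitals in Spdef mark GCGTG on the sense strand, at positions -177 to -173 from the start. Foxa3 held the same motif on the other strand, at -214 to -210, and Muc4, Agr2 and Gp2 held none of the 5 motifs in this window. Of 32851 promoters of the same length, 28.2% held GCGTG, 14.0% AGGTCA, 5.9% the Stat6 motif, 4.9% CCGGAT and 3.2% TGTTTAC. A match is a description of the letters, not a site, and no match says only that the letters are not in this window.

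The first question was how the goblet cell genes of wild-type lung stood after smoke, which here cannot be told apart from the sex-linked difference between the groups. All 8 measured members were lower in WT smoke than in WT room air at an adjusted p under 0.05, against a background of 2.55% of all genes called lower (0 members and 2.31% of genes were called higher, 4.86% in either direction). The groups did not overlap for any of the 8, against 6.91% of all genes without overlap in that direction. The median difference of the 8 was -1.74, beside -0.01 over all genes. The members were chosen with earlier results of these data known, so the shares over all genes are background, not a test of the set. Members are described by role, from the regulators to the mucins and their secreted partners.

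Spdef, an Ets factor needed for goblet cell differentiation, changed least. Its levels were -2.62, -2.45, -2.36 and -2.62 in room air, -2.77, -3.20, -2.98 and -3.10 in WT smoke, and -3.08, -3.05, -3.03 and -3.38 in the mutants. The room-air arrays lie above all others, by a narrow margin over WT smoke replicate 1, and the smoke groups overlap. Spdef fell by 0.50 ± 0.11 in WT smoke, a 1.41-fold lower level (limma adjusted p = 0.0228). The call did not hold with slide as a block (adjusted p = 0.062), with normexp background correction (0.884), or in 5 of the 12 fits that left out an array (WT room air replicate 2 or 3, or WT smoke replicate 2, 3 or 4, 0.0507 to 0.0651). Its probe lies at chr17:27442294-27442353 on build mm8, as do all probe positions given here.

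Foxa3, a forkhead factor that acts with Spdef, was at the edge of detection. Its probe (chr7:18172226-18172285) passed the scanner's background flag on 2 of the 4 arrays of room air and on none of the 8 of smoke. Levels were -6.31, -6.21, -6.21 and -6.94 in room air, -7.64, -7.41, -7.17 and -8.14 in WT smoke, and -7.24, -7.12, -7.61 and -7.91 in the mutants. All 8 smoke arrays lie below the 4 room-air arrays, but only 2 of the 12 values were well above background, so the size of the difference was not measured. With smoke values raised to the lowest level still well above background, room air averaged 1.14-fold above WT smoke and 1.12-fold above the mutants. The fit without a filter on signal takes values below background as they stand. There Foxa3 differed by -1.17 ± 0.25 in WT smoke and by -1.05 ± 0.25 in the mutants against room air (limma adjusted p = 0.038 and 0.0239). With Foxa3 counted, 9 members were then called lower in each, but these differences are not measured sizes. Against WT smoke the mutants differed by 0.12 ± 0.25 (adjusted p = 0.874), a comparison in which no array of either group measured it.

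Agr2, a disulphide isomerase of the endoplasmic reticulum required for mucin folding, fell with smoke, while its difference between the smoke groups did not pass. Its levels were 0.62, 1.22, 1.19 and 0.21 in room air, -1.19, -2.24, -1.49 and -1.90 in WT smoke, and -2.06, -1.92, -1.90 and -2.29 in the mutants. All 8 smoke arrays lie more than a log2 unit below the lowest room-air array, while the mutants lie within the range of WT smoke save for replicate 4. Agr2 fell by 2.52 ± 0.25 in WT smoke, 5.72-fold (95% confidence interval 3.88 to 8.42, adjusted p = 0.000227, limma), the fifth-lowest difference of all genes. The probe lies at chr12:36514185-36514244.

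Muc5b, the gel-forming mucin that clears the resting airway, separated all 3 groups. Its levels were 2.16, 2.34, 2.23 and 2.02 in room air, 0.86, 0.34, 0.57 and 0.45 in WT smoke, and -0.20, -0.29, -0.15 and -0.28 in the mutants. No group overlaps another, and the 4 mutants lie close together (SD 0.07). The difference in WT smoke was -1.63 ± 0.10, a 3.09-fold lower level (95% confidence interval 2.64 to 3.63, limma adjusted p = 5.85e-06). Its probe lies at chr7:141682220-141682279.

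Muc5ac, the inducible gel-forming mucin encoded beside Muc5b, had 2 probes that differed in what they showed. The brighter (chr7:141628278-141628337) read -1.94, -2.05, -1.70 and -2.54 in room air, -3.22, -3.70, -3.37 and -3.62 in WT smoke, and -3.76, -3.90, -3.81 and -4.06 in the mutants. Here the 3 groups do not overlap, and the level fell by 1.42 ± 0.16 in WT smoke, 2.67-fold (limma adjusted p = 0.00054). Under normexp correction the difference was -0.90 and did not pass (adjusted p = 0.655). The dimmer probe (chr7:141620060-141620119), nearer the 5′ side of the gene, read between -5.99 and -5.21 in room air, between -5.96 and -5.53 in WT smoke and between -6.10 and -5.51 in the mutants. Its groups overlap throughout, with a difference of -0.12 ± 0.17 in WT smoke (limma adjusted p = 0.789 over all probes). These levels, from signals of 14.65 to 28.26, lie close to the lowest still well above background on the arrays (-6.96 to -6.34). Whether closeness to background hid a fall at the dimmer probe was not tested. The level given for Muc5ac is thus that of the brighter probe, and the files do not say which exon either probe reads.

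Muc4, a mucin tethered in the membrane of airway epithelial cells, showed a small fall that its probes shared. Its representative probe, aligned from 32698851 to 32700573 on chromosome 16, read -0.05, 0.00, 0.25 and -0.02 in room air, -0.56, -0.61, -0.42 and -0.79 in WT smoke, and -0.73, -0.83, -1.05 and -0.76 in the mutants. Room air stands apart from both smoke groups, which overlap each other. Muc4 fell by 0.64 ± 0.10 in WT smoke, 1.56-fold (limma adjusted p = 0.00345), a call that normexp correction ended (adjusted p = 0.10). Of its 6 probes 5 were kept, with differences between -0.71 and -0.60 in WT smoke, and 4 of these 5 passed. The exception, at -0.60, had an adjusted p of 0.0597. The sixth probe was well above background on no array.

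**Figure D2:**
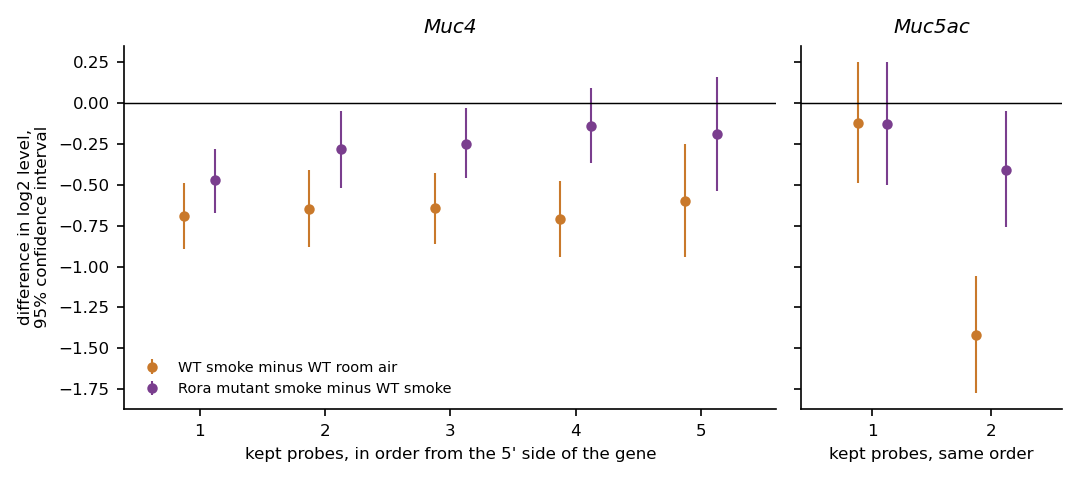
Difference in log2 level (y axis, log2 units; points) with its 95% confidence interval (bars) for each kept probe of Muc4 and Muc5ac, ordered from the 5′ side of the gene, for WT smoke minus WT room air and Rora mutant smoke minus WT smoke. The 5 Muc4 probes lie between -0.71 and -0.60 for smoke. The Muc5ac probes differ, at -0.12 for the dimmer, which read close to background, and -1.42 for the brighter.

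Clca1, a secreted metalloprotease of goblet cell granules named gob-5 or Clca3 in older annotation, had the second-lowest difference of all genes. Its levels were 4.42, 4.05, 4.79 and 2.04 in room air, -0.46, -3.77, -1.84 and -4.29 in WT smoke, and -5.64, -5.78, -5.21 and -6.25 in the mutants. Room-air replicate 4 is the lowest of its group, and the WT smoke arrays range widely, yet no groups overlap. Clca1 fell by 6.42 ± 0.79 in WT smoke, 85.6-fold (95% confidence interval 25.6 to 286, limma adjusted p = 0.000889). The wide interval goes with the spread of WT smoke (SD 1.77) and room air (SD 1.23). The probe lies at chr3:144941980-144942039. A further probe that carries the name Clca1 in the files reads another gene of the family, now Clca3a1, and is not a member. That gene stood at -3.28 ± 0.08 (SD, n = 4) in room air, -2.90 ± 0.04 in WT smoke and -2.02 ± 0.18 in the mutants, an opposite order to that of Clca1.

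Tff2, a trefoil peptide secreted with mucins, read 1.12, 1.05, 1.34 and 0.45 in room air, -0.71, -1.26, -0.92 and -1.16 in WT smoke, and -2.42, -1.91, -1.62 and -2.52 in the mutants. The 3 groups step down without overlap. Tff2 fell by 2.00 ± 0.23 in WT smoke, 4.01-fold (limma adjusted p = 0.000498), and its probe aligns from 30869323 to 30870147 on chromosome 17.

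Gp2, a glycoprotein of secretory granule membranes that is also a receptor on M cells (the antigen-sampling cells of mucosal epithelium), read -1.79, -1.80, -1.31 and -2.84 in room air, -3.56, -3.67, -3.87 and -4.09 in WT smoke, and -5.19, -5.34, -5.48 and -5.63 in the mutants. The groups again step down without overlap, with room-air replicate 4 lowest of its group. Gp2 fell by 1.86 ± 0.26 in WT smoke, 3.63-fold (limma adjusted p = 0.00189). With normexp correction the difference was -1.06 and did not pass (adjusted p = 0.813). Its probe aligns from 119236671 to 119238322 on chromosome 7.

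Within slides, all 8 members were lower in WT smoke than in room air on each of the 3 slides. Clca1 differed by -3.69, -8.08 and -6.64 on slides 1, 2 and 3, Muc5b by -1.23, -1.94 and -1.65, and Spdef by -0.16, -0.69 and -0.62. A slide held at most 2 arrays of a group, so these values carry no test. With slide as a block 7 of the 8 passed, all but Spdef. With normexp background correction, which adds 50 to each background-corrected intensity, 4 of the 8 passed: Muc5b, Agr2, Clca1 and Tff2.

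The next question was how the Rora mutants differed from wild type under smoke. Of the 8 members 4 were lower in the mutants and 4 did not pass, against 3.56% of all genes called lower and 6.04% in either direction; 0 members were called higher, against 2.48%. The groups did not overlap for 5 of the 8, Muc5ac being the fifth, against 6.85% of all genes. The median difference was -0.60, beside 0 over all genes.

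Again Clca1 led. It fell by 3.13 ± 0.79, 8.74-fold (95% confidence interval 2.62 to 29.2, limma adjusted p = 0.0409), the lowest difference of any gene in this comparison. Its mutant signals of 14.3 to 27.2 correspond to levels of -6.25 to -5.21, close to the lowest levels still well above background on those arrays (-6.67 to -6.48), although each was itself well above background. The call rested on a thin margin: it did not hold when WT smoke replicate 1, the brightest of its group, was left out (a difference of -2.42, adjusted p = 0.0885), nor when any single mutant was left out (0.0595 to 0.108). It also failed without WT room air replicate 1 or 2 or WT smoke replicate 3 (0.055 to 0.101), with only the 2 smoke groups in the fit (0.0664), without a filter on signal (0.078), and with normexp correction (-0.81, adjusted p = 0.623).

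Muc5b was 0.79 ± 0.10 lower in the mutants. That was a 1.73-fold lower level (95% confidence interval 1.47 to 2.02, limma adjusted p = 0.00204). Under normexp correction it was -0.70 (adjusted p = 0.107). Gp2 fell by 1.61 ± 0.26, 3.06-fold (limma adjusted p = 0.006), the 15th lowest of all genes here and also the 15th lowest in the smoke comparison. The Gp2 signals of the mutants were 22.0 to 27.7, and under normexp correction the difference was 0.10, of the opposite sign (adjusted p = 0.895). Tff2 fell by 1.11 ± 0.23, 2.15-fold (limma adjusted p = 0.018). It missed the threshold without WT smoke replicate 1 (adjusted p = 0.0551), without mutant replicate 4 (0.054) and with normexp correction (0.623). Leaving out either of those 2 arrays brought the number of members called from 4 to 2, Muc5b and Gp2.

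The other 4 members had smaller differences. Muc5ac differed by -0.41 ± 0.16 (95% confidence interval -0.76 to -0.05, limma adjusted p = 0.176) with every mutant below every WT smoke array, and by 0.23 under normexp correction. Agr2 differed by -0.34 ± 0.25 (-0.90 to 0.22, adjusted p = 0.504). Spdef differed by -0.13 ± 0.11 (adjusted p = 0.561), and by 0.30 under normexp correction. Muc4 differed by -0.25 ± 0.10 (adjusted p = 0.171) at its representative probe. Of its other kept probes, that nearest the 5′ side (chr16:32674938-32674997) was lower in the mutants, by 0.47 ± 0.09 (limma adjusted p = 0.0136 over all probes). It read between -2.93 and -2.72 in room air, between -3.73 and -3.37 in WT smoke and between -4.14 and -3.84 in the mutants, with no overlap.

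Within slides the 4 members called lower in the mutants were lower on each slide. Clca1 differed by -5.18, -1.74 and -3.89, Muc5b by -1.06, -0.69 and -0.79, Tff2 by -1.71, -0.70 and -1.15 and Gp2 by -1.63, -1.46 and -1.69. Agr2 and Spdef did not keep their sign: on slide 2 they differed by 0.15 and 0.09. With slide as a block the same 4 members passed, Clca1 with an adjusted p of 0.0463.

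Set against WT room air, the smoke-exposed mutants had all 8 members lower, beside 10.0% of all genes (6.67% were higher and 16.7% changed in either direction), and none overlapped, beside 11.7%. This comparison shares its arrays with each of the others. Clca1 was 748-fold lower (95% confidence interval 224 to 2500), a difference of -9.55 ± 0.79 (limma adjusted p = 2.7e-05). Over the 23 alternatives this difference ran from -10.14 to -6.08 and passed in each. The mutant signals of Clca1, 14.3 to 27.2, lay close to background, so the size of the fold is uncertain. Gp2 was 11.1-fold lower, Tff2 8.64-fold, Agr2 7.22-fold, Muc5b 5.34-fold, Muc5ac 3.53-fold, Muc4 1.85-fold and Spdef 1.54-fold. Under normexp correction Muc5ac, Gp2 and Spdef did not pass. The members split this distance differently: Agr2 differed by -2.52 from room air to WT smoke and by -0.34 from there to the mutants, and Gp2 by -1.86 and -1.61. These differences share the WT smoke arrays, and no test was made between them.

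**Figure D3:**
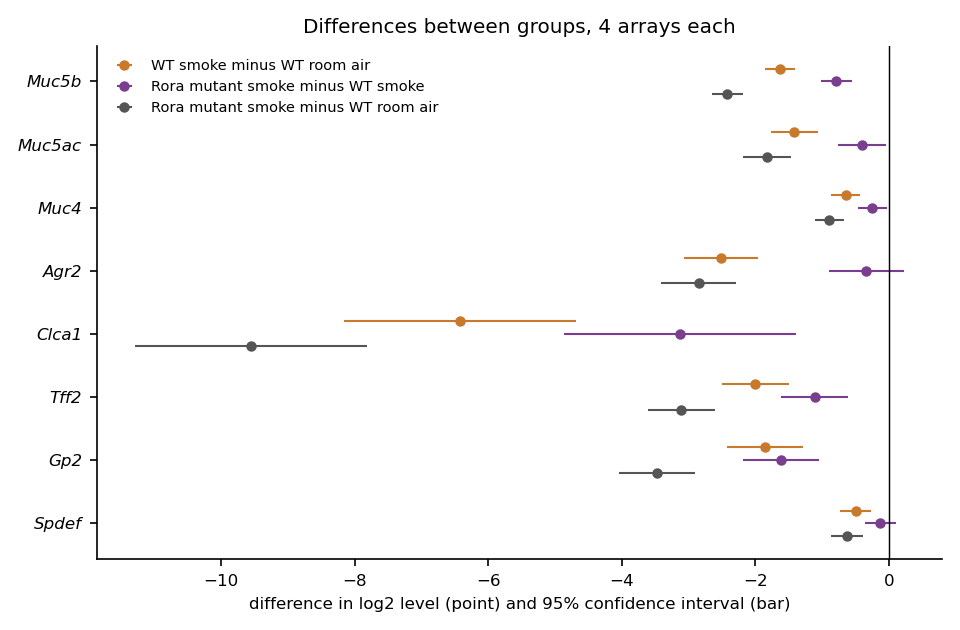
Difference in log2 level between groups (x axis, log2 units; points) with its 95% confidence interval (bars) for the 8 measured members in 3 comparisons of 4 arrays against 4. All 8 lie below 0 for smoke; against WT smoke, the mutants lie farthest below 0 for Clca1 (-3.13) and Gp2 (-1.61), and the intervals of Agr2 and Spdef cross 0.

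The members other than Muc4 also correlated with each other among mice of the same group. After each group's mean was removed, the 21 pairs of members without Muc4 correlated between 0.48 and 0.89 over 12 arrays (median r = 0.75), with Muc5ac and Clca1 the highest at 0.89. The 7 pairs with Muc4 lay between -0.04 and 0.44 (median 0.32). These correlations are a description, since the values of an array share 1 RNA and 1 scaling, and pairs of other genes were not set beside them. They are not particular to the members: the highest gene outside them, named below, reached a mean r of 0.79 with the 8. In room air, replicate 4 had the lowest level of 6 of the 8 members and replicate 3 the highest of 6. In WT smoke, replicate 1 was highest for 7 members and replicate 2 lowest for 5. Among the mutants replicate 4 was lowest for 6.

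**Figure D4:**
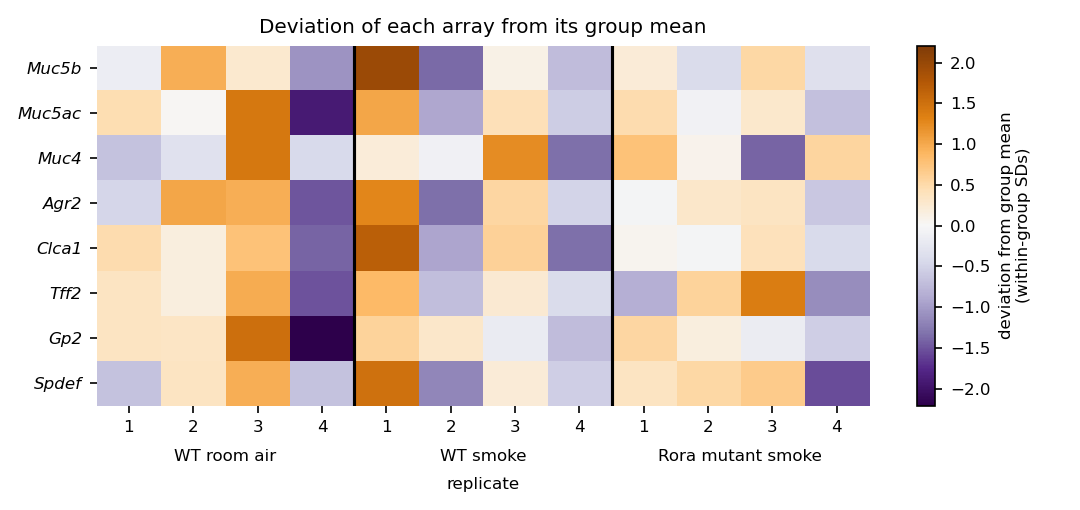
Deviation of each array from its group mean (colour, in units of the gene's SD within groups) for the 8 measured members (rows) on 12 arrays (columns, by group and replicate). Room-air replicate 4 is low and WT smoke replicate 1 high across most members; the Muc4 row follows the others least.

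Genes outside the members were ranked by their mean correlation with the 8 members over the 12 arrays. Highest on levels, which carry the group differences, were Slc38a11 (mean r = 0.967), Klk1b3 (0.959), Chad (0.956), Bpifb1 (0.953), Adra2a (0.951), Atp2c2 (0.951), B3gnt4 (0.948) and Dmrt2 (0.945). Slc38a11 encodes an amino acid transporter of the SLC38 family, Chad a cartilage matrix protein, Bpifb1 a secreted airway protein and Atp2c2 a calcium and manganese pump of the secretory pathway. In WT smoke they ranged from -1.56 for Slc38a11 to -0.26 for B3gnt4, while in mutant against WT smoke Klk1b3 differed by -0.33 (0.46 under normexp correction) and Atp2c2 by -0.53. Slc38a11 was well above background on 3 of 4 arrays of WT smoke and on 0 of 4 of the mutants, so no difference is given for it there. Since the levels of all 12 arrays chose these genes, their direction is fixed by the choice in both comparisons and is a description only. With group means removed the highest were Reg3g (mean r = 0.79), Ccdc113 (0.771), Naaladl2 (0.77), Mfsd4b1 (0.757), Tcte3 (0.755), Scgb3a1 (0.754), Zfp474 (0.745) and Sypl2 (0.744). Reg3g is an antimicrobial lectin, Scgb3a1 a secretoglobin of airway secretory cells, and Ccdc113 and Tcte3 are genes of cilia. Of these 8 limma called 0 in WT smoke against room air (3 at an unadjusted p under 0.05), and Ccdc113 (-0.33), Mfsd4b1 (-0.59) and Zfp474 (-0.34) were lower in the mutants.

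Of 10 further mucins 6 were measured, and 2 were lower in WT smoke: the membrane mucins Muc1 (-0.33 ± 0.06, limma adjusted p = 0.0104) and Muc20 (-0.54 ± 0.09, 0.00752). The median of the 6 was 0.01, beside -0.01 over all genes. Muc13, a membrane mucin of the gut, was well above background on 0 of 4 arrays of room air, 2 of 4 of WT smoke and 3 of 4 of the mutants, so no difference is given. The gel-forming Muc2, well above background on 2 of 4 arrays of room air and on all 8 of smoke, read -6.34 and -5.87 in WT room air and smoke (0.47 ± 0.16, limma adjusted p = 0.125), with the opposite sign under normexp correction. None of the 6 passed in mutant against WT smoke, by limma or at an unadjusted p under 0.05.

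Of 26 genes of mucin folding, glycosylation and mucus partners 17 were measured, and 3 were lower in WT smoke. Ern2, the stress sensor of mucous cells, differed by -0.60 ± 0.14 (limma adjusted p = 0.0345), Galnt12, which starts O-glycans, by -0.35 ± 0.06 (0.0054), and the sialyltransferase St3gal1 by -0.24 ± 0.05 (0.0319). Fut2, a fucosyltransferase, missed the threshold (-0.41 ± 0.11, 0.0502). In mutant against WT smoke 0 of 17 passed in limma, with 3 lower and 4 higher at an unadjusted p under 0.05. Of 14 measured genes of granule release, Adora2b, an adenosine receptor, was lower in WT smoke (-0.61 ± 0.12, adjusted p = 0.012). Slc12a2 (-0.24), Stxbp2 (0.21) and Unc13b (-0.10) did not pass. In the mutants 0 of 14 passed, with 0 lower and 5 higher at an unadjusted p.

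Of 25 signals and receptors known to induce goblet cells 21 were measured. In WT smoke the epithelial alarmin Il33 (-0.74 ± 0.10, limma adjusted p = 0.00109) and its receptor Il1rl1 (-0.45 ± 0.07, 0.00439) were lower. The interleukin-4 and interleukin-13 receptor chain Il4ra was higher (0.40 ± 0.07, 0.0078). So were the growth factors Egf (0.34, but -0.17 under normexp correction) and Hbegf (0.20), which are named after their values were seen. In the mutants Il1rl1 was lower again (-1.05 ± 0.07, adjusted p = 3.03e-05), as was Il17rb, a receptor for interleukin-25 (-1.08 ± 0.13, 0.000955). Il33 differed by 0.07 ± 0.10 in the mutants (adjusted p = 0.75). Under normexp correction the difference of Il17rb was 0.32. Egfr, also named after its value was seen, was higher in the mutants (0.27). The median of the list was 0.02 in the smoke comparison and 0.05 in the mutants. All 13 airway transcription factors of the list were measured, and limma called 0 in either comparison. At an unadjusted p 0 were lower and 1 higher in WT smoke, and 3 lower and 1 higher in the mutants. Elf3 differed by 0.32 in smoke, Hes1 by -0.31, Sox2 by -0.25 and Elf5 by 0.17 in the mutants.

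**Figure D5:**
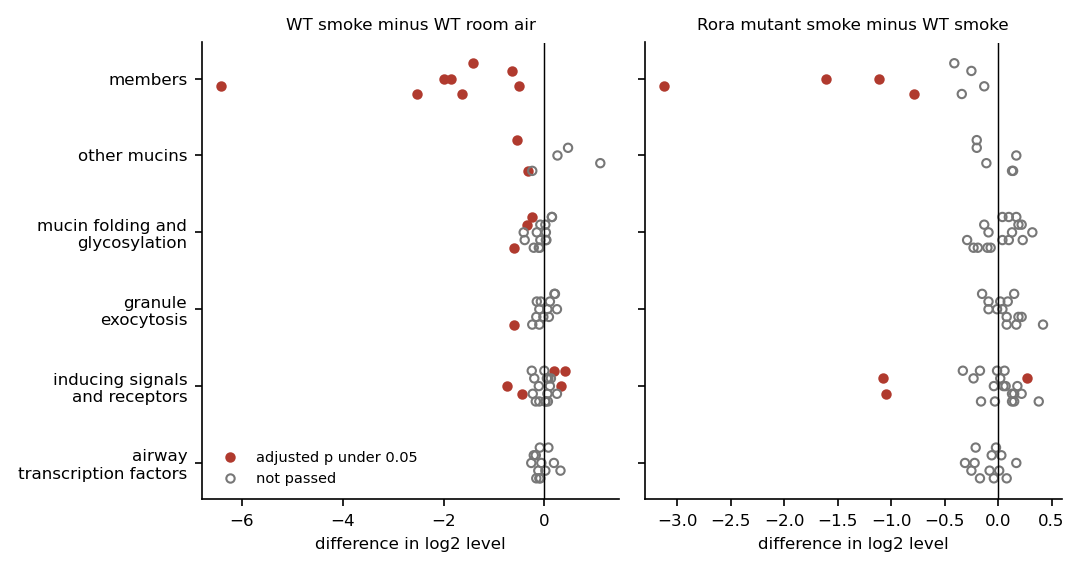
Difference in log2 level (x axis, log2 units, a separate scale per panel) of the 8 measured members and of the measured genes of 5 related lists, for WT smoke minus WT room air and Rora mutant smoke minus WT smoke; each point is a gene, filled where it passed. The members reach -6.42 and -3.13, while the largest falls among the lists are Il33 at -0.74 and Il17rb at -1.08.

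Markers of the cells around goblet cells were read beside these values. Of 6 general epithelial markers limma called 0 in each comparison (at an unadjusted p under 0.05, 2 higher in WT smoke and 0 in the other comparisons). Their mean level was 4.17 to 4.26 in room air, 4.11 to 4.38 in WT smoke and 4.21 to 4.28 in the mutants. Of 8 club cell markers 0 passed in WT smoke (0 at an unadjusted p) or in the mutants against WT smoke (2 lower at an unadjusted p), with a mean level of 6.34 to 6.38, 6.10 to 6.46 and 6.10 to 6.22. Scgb1a1, the defining secretory protein of club cells, differed by 0.03 ± 0.10 in WT smoke. Of 9 measured markers of ciliated cells 0 passed in WT smoke (3 lower at an unadjusted p), and Ccdc113 (-0.33) and Tekt1 (-0.34) were lower in the mutants against WT smoke, where 5 of the 9 were lower at an unadjusted p. Their mean level was 1.70 to 1.84, 1.45 to 1.84 and 1.36 to 1.40. In mutant smoke against room air 6 of the 9 ciliated markers were lower by limma, led by Ccdc113 (-0.54), as were 2 of the 8 club cell markers, Scgb3a1 (-0.60) and Hp (-0.31). The part of ciliated and club cells in the members' difference was not tested.

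Some markers of gland, cartilage, basal and alveolar cells were also lower in WT smoke than in room air. Of 8 measured gland and serous markers 3 were lower: Ltf (-2.03 ± 0.37, limma adjusted p = 0.01), Bpifb1 (-1.54 ± 0.24, 0.00362) and Lcn2 (-0.64 ± 0.16, 0.0457). Pigr (-0.79), Bpifa1 (-0.41), Dmbt1 (-0.08), Aqp5 (0.14) and Lyz1 (0.01), of the same list, did not pass. At an unadjusted limma p under 0.05, 4 of the 8 were lower and 1 higher. The list's mean level was 1.83 to 2.34 in room air, 1.16 to 1.59 in WT smoke and 1.21 to 1.72 in the mutants. Of 8 measured markers of airway cartilage 4 were lower, namely Chad (-1.25 ± 0.11), Sox9 (-0.66), Col2a1 (-0.58) and Col11a2 (-0.38). The mean level of the cartilage list was -3.66 to -3.31 in room air, -4.18 to -3.95 in WT smoke and -4.02 to -3.82 in the mutants, so room air does not overlap the smoke groups. Of 5 basal cell markers only Ngfr passed (-0.64), with 2 lower and 0 higher at an unadjusted limma p under 0.05. Krt5 (-1), Trp63 (-0.26), Krt14 (0.10) and Krt15 (0.19) did not pass. Of 6 alveolar type 2 markers 3 were lower, namely Lamp3 (-0.27), Sftpa1 (-0.27) and Sftpd (-0.45). The part of airway, gland and cartilage content of the piece of lung in the members' fall was not tested. In the mutants against WT smoke 0 of 8 gland markers (1 lower and 2 higher at an unadjusted limma p) and 0 of 8 cartilage markers (0 lower and 2 higher) passed. The part of gland and cartilage content in the members' difference between the smoke groups was not tested. In mutant smoke against room air 3 of 8 gland markers were lower, Bpifb1 (-1.96), Ltf (-2.04) and Pigr (-1.53). Of 6 measured M cell markers, limma called 0 lower in either comparison (1 lower in WT smoke and 0 in the mutants at an unadjusted p), and Tnfaip2 was higher in both (0.51 and 0.22). In the mutants against WT smoke Anxa5 was higher too (0.20, adjusted p = 0.0344), and in mutant smoke against room air Tnfaip2 (0.73), Anxa5 (0.20) and Ccl20 (1.53) were higher and Marcksl1 was lower (-0.31).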

How the data were processed

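Whole-lung RNA of 12 mice, 100 ng each, was read on single-colour arrays lying on 3 slides. Per the file headers, the authors' scans with Agilent Feature Extraction 9.5.3.1 hold a processed signal, a linear intensity with background and spatial trend removed, and the flags of the same files are other values deposited as 0 or 1. The value table deposited by the authors is in log2 intensity. Its columns correlated with the scans at 0.99952 or more, and its first sample column had a median of 6.79. The deposited table served as an alternative.

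Outlier spots were left out, and 43379 non-control spots were averaged to 41174 probes, each scaled on the log2 level to its array's 75th percentile. Probes well above background on at least 4 of 12 arrays and valued on at least 3 arrays per group were kept (30189), and the brightest by mean represented its gene (19819 genes). Symbols came from a RefSeq table by accession (24375 probes directly and 121 by a listed accession) or by name or older name (8620), while for 8058 probes the files' own name was used. Group means were fitted over all 12 arrays (limma 3.58.1, R 4.3.3, version 1.17.8 of data.table), two-sided. Positions are those of the files, on build mm8, and exon positions of the probes were not analysed here. Figures used Python 3.11.15, matplotlib 3.10.9 and pandas 2.3.3.

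The members, lists and tests were chosen with earlier results of these data known. Named were all members, per further list the 4 genes with the smallest p in either of the first 2 comparisons, and the 8 genes most like the members by each measure. Same-numbered arrays of different groups were not paired in the main fit. Of the 12 same-numbered pairs, 4 had deviations that correlated above 0.1 (range -0.097 to 0.224). Differently numbered pairs ranged from -0.201 to 0.205. These values do not settle whether the numbers pair the mice. On simulated data for the smoke comparison, over 19819 genes, the fit recovered 83% of changes of 1 log2 unit and 96% of changes of 2. The number of arrays limits the precision.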

Additional observations from a re-analysis of the deposited data

Results flagged for a closer look

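Of 45 groups of 4 arrays examined, over every probe of the members, 4 held an array set apart from the other 3 by Dixon's ratio at its 95% critical value; chance gives about 1 in 20. Spdef in the mutants was lowest in replicate 4, at -3.38 (ratio 0.857). Foxa3 in room air was lowest in replicate 4, at -6.94 (0.863), an array on which it was not well above background. At 2 of the Muc4 probes a room-air array stood highest, at 0.25 for the representative probe (0.833) and at -2.72 for the probe nearest the 5′ side of the gene (0.857).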

How the results depend on the processing

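Normexp background correction moved most. The members called lower were 4 in WT smoke against room air, 0 in mutant against WT smoke (none at an adjusted p under 0.05 in limma) and 5 in mutant smoke against room air. Genes called lower and higher fell to 13 and 40, 16 and 12, and 92 and 89, and the median of all genes was -0.07, 0.10 and 0.08. The cause was not tested. Signs also turned there, in WT smoke for Elf5 (0), Muc13 (-0.22), Muc2 (-0.25) and Egf (-0.17), and in the mutants against WT smoke for Muc5ac (0.23), Gp2 (0.10), Spdef (0.30), Elf3 (0.02), Il17rb (0.32), Il4ra (-0.05), Ern2 (0.50), Muc13 (0.61), Muc2 (0.61), Slc38a11 (0.56), Klk1b3 (0.46), Adra2a (0.13) and Dmrt2 (0.24). Without a filter on signal, 270 genes were lower and 294 higher in WT smoke, and 390 and 297 in the mutants. The slide block gave 335 genes lower in WT smoke, a fit of only the 2 smoke groups 404 lower in the mutants, and scaling to the median 2961 higher in mutant smoke against room air. With the replicate number as a block, a pairing that the labels do not state, 332 genes were lower in WT smoke, 8 members passed there and 4 in the mutants. Leaving out 1 array gave 7 to 8 members lower in WT smoke (264 to 505 genes lower, 275 to 462 higher), 2 to 4 in the mutants against WT smoke (303 to 737 and 280 to 467) and 8 in mutant smoke against room air (1357 to 1967 and 882 to 1266). Small signs turned in the mutants for Muc13 with array weights (0.01), and over the fits without 1 array for Muc13 (-0.27 to 0.12), Ern2 (-0.18 to 0.02) and Il33 (-0.01 to 0.13). The smoke calls of Muc5b, Agr2, Clca1 and Tff2 held under all 23 alternatives; that of Spdef was lost under 7, and in the mutants that of Clca1 under 11 and of Tff2 under 3.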
